A study of Mus musculus with 42 samples.

Results

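The Cyp2c family comprises cytochrome P450 enzymes that hepatocytes make in large amounts. The 10 members described here (Cyp2c29, Cyp2c37, Cyp2c38, Cyp2c39, Cyp2c40, Cyp2c44, Cyp2c50, Cyp2c54, Cyp2c55 and Cyp2c69) were taken by name, after the Ensembl identifiers of the count table had been matched to gene symbols. They are 10 of the 54446 genes in the table and 10 of its 18 Cyp2c genes, of which 15 are protein coding. All 10 members passed the filter on low counts. Livers of 42 female APOE*3-Leiden mice, which carry a human APOE*3-Leiden transgene and develop hyperlipidemia on a cholesterol-rich diet, were profiled by RNA-seq with 1 library per mouse. The chow group comprised 10 mice on a maintenance diet, kept as the healthy reference. The WTD group comprised 16 mice on a Western-type diet with 15% cocoa butter, 40.5% sucrose and 1% cholesterol, and the atorvastatin group comprised 16 mice on the same diet with the statin mixed in, an inhibitor of HMG-CoA reductase. The mice were 8 to 14 weeks old at the start, an age the protocol gives for the study's mice without naming the chow group. Both WTD-fed groups began with a run-in of 3 weeks on this diet and received 0.05% sodium cholate, a bile acid salt, from week 22. The atorvastatin dose was 3.0 mg/kg/day, raised to 4.5 mg/kg/day at week 5, and the livers were taken at week 32. The mice were group-housed, and cage membership was not given in the sources used here. All chow-fed mice are labelled AZ# and all mice of both WTD-fed groups Gen#, so label prefix and diet coincide. The sources do not explain these prefixes, and a difference tied to them could not be tested apart from the diet.

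Cyp2c enzymes sit in the membrane of the endoplasmic reticulum, where they take electrons from the P450 oxidoreductase and insert 1 oxygen atom into drugs, steroids and fatty acids. Several of the mouse enzymes turn arachidonic acid into epoxides or hydroxylated fatty acids that act on vessels and inflammation. In mouse liver, several Cyp2c genes are expressed at different levels in the sexes under the control of growth hormone, and several respond to the nuclear receptor CAR.

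A cysteine that holds the haem iron is common to all P450 enzymes, and the sequence around it shows how the members relate to each other. The following 60 coding bases open the last exon of each gene (GRCm38, GENCODE gene models), are written 5′ to 3′ on the gene's strand in lower case, and have capitals at each base that differs from Cyp2c29. The codon of the cysteine is bases 12 to 14.
Cyp2c29, chr19:39330252-39330311, + strand: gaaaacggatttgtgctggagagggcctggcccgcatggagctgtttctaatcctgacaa
Cyp2c38, chr19:39391053-39391112, − strand: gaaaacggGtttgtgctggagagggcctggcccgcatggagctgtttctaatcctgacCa
Cyp2c39, chr19:39568013-39568072, + strand: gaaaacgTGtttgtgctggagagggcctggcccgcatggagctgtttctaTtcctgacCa
Cyp2c40, chr19:39767431-39767490, − strand: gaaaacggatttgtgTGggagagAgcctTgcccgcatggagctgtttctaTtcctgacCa
Cyp2c69, chr19:39843017-39843076, − strand: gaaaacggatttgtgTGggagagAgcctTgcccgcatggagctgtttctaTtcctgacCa
Cyp2c50, chr19:40113434-40113493, + strand: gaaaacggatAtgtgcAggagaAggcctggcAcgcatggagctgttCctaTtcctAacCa
Cyp2c37, chr19:40011727-40011786, + strand: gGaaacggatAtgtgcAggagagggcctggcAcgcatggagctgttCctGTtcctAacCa
Cyp2c54, chr19:40038359-40038418, − strand: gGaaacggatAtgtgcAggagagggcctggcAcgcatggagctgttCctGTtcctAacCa
Cyp2c55, chr19:39042017-39042076, + strand: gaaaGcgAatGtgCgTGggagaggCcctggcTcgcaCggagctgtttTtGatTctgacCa
Cyp2c44, chr19:44005563-44005622, − strand: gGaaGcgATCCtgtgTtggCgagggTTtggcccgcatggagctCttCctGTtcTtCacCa

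Cyp2c40 and Cyp2c69 shared the same 60 bases, as did Cyp2c37 and Cyp2c54, while Cyp2c44 differed from Cyp2c29 at 17 bases and Cyp2c55 at 13. Identity over the whole aligned coding sequence counted gaps as differences. Between pairs of members it ranged from 59.49% to 96.12%, with a median of 75.73%. On this measure the highest value was that of Cyp2c37 and Cyp2c50 at 96.12%, and Cyp2c38 and Cyp2c39 were 94.22% identical. The coding sequence of Cyp2c40 has 1560 bases against 1473 in Cyp2c69. Its extra length lowers every value of Cyp2c40, among them 92.44% with Cyp2c69. Identity without gaps was not computed, so the closest pair of members was not settled. Cyp2c69 was closest to Cyp2c67 at 97.69% and Cyp2c40 to Cyp2c68 at 92.63%, and neither of those genes is among the members. Near-identical copies can share reads, and 29.1% of all stretches of 150 bases, the read length, in the Cyp2c40 transcripts and 22.5% in those of Cyp2c69 also occurred in another Cyp2c gene. This share was 3.25% in Cyp2c50, 2.99% in Cyp2c54, 0.299% in Cyp2c37 and 0 in the other 5 members. Reads without a unique alignment were not counted, so values of Cyp2c40 and Cyp2c69 carry an uncertainty that the counts do not show.

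**Figure D1:**
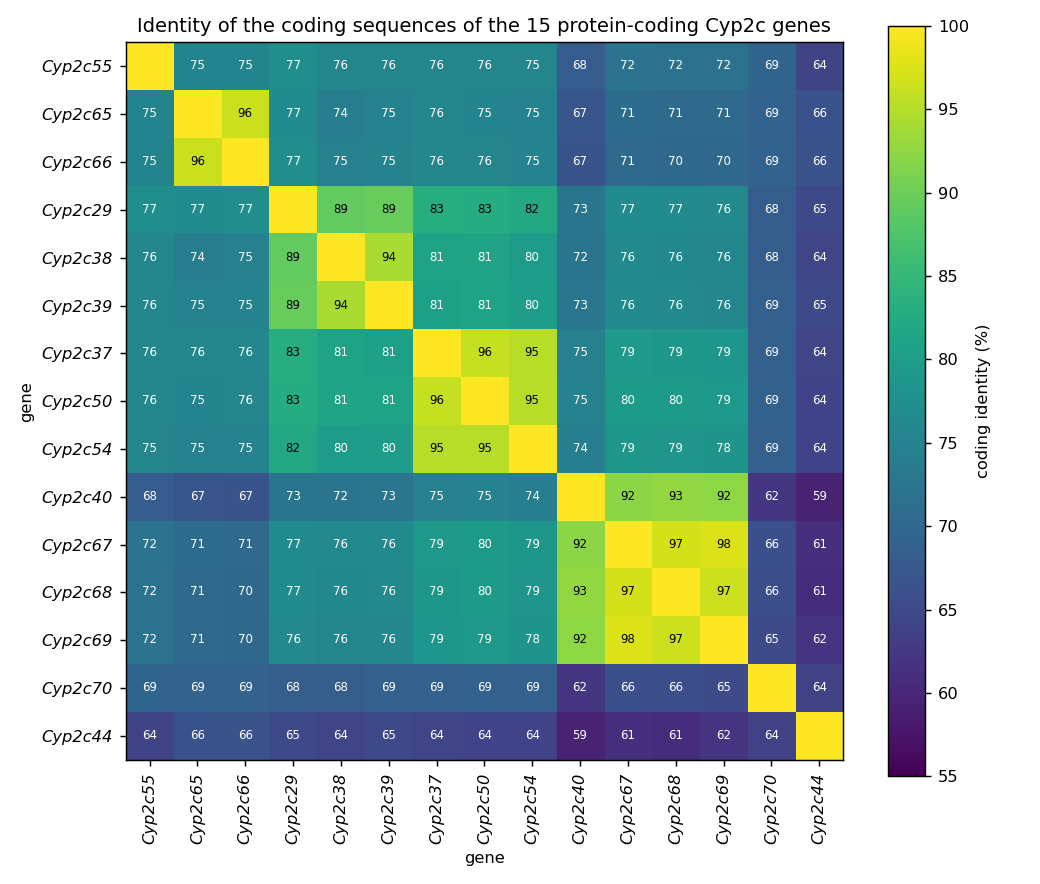
Identity of the aligned coding sequences, in percent, for every pair of the 15 protein-coding Cyp2c genes, with lighter cells for higher identity. Gaps count as differences, which lowers the values of Cyp2c40, whose coding sequence is the longest. Cyp2c37, Cyp2c50 and Cyp2c54 form a block of high identity (Cyp2c37 with Cyp2c50, 96.12%), as do Cyp2c40 and Cyp2c67 to Cyp2c69, and the row of Cyp2c44 holds the lowest value, 59.49% with Cyp2c40.

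Cyp2c40 and Cyp2c69 had the same block of bases in front of their start sites, which is shown because their log2 fold changes for atorvastatin against WTD were the highest of the 10 members. The 100 bases upstream of the RefSeq start (GRCm38.p6) are given with the letters CAAAGTCCA, the core of the motif bound by the liver factor HNF4α, in capitals.
Cyp2c40, chr19:39812815-39812914, − strand: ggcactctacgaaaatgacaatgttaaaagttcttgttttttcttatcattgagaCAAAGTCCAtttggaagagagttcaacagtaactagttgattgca
Cyp2c69, chr19:39886770-39886869, − strand: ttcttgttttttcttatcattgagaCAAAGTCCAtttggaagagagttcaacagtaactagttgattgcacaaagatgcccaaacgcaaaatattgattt

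In the 250 bases upstream of the start, read on both strands, CAAAGTCCA occurred in 2 of the 8 members that RefSeq matched, against 0.384% of 32851 promoters. Cyp2c44 and Cyp2c54 were not searched. TATAAA, the TATA box, occurred in Cyp2c29, Cyp2c38 and Cyp2c55, against 12.4% of all promoters. Direct repeats of AGGTCA spaced by 1 base (in 0.033% of promoters) or by 4 bases (0.015%), which are bound by pairs of nuclear receptors, and TTCNNNGAA (7.02%), the STAT5 motif, occurred in 0 of the 8 members. No 2 of these motifs overlapped in the windows shown, and a match describes letters only.

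One WTD-fed mouse and several libraries stood apart. Gen#20, replicate 15 of the WTD group, was the highest of the 16 in 9 members, at 2.10 times the median of the other 15 in Cyp2c38 up to 13.0 times in Cyp2c69. Levels are given as CPM, the count relative to the library's total, with totals adjusted by edgeR's TMM factors. In Cyp2c55 it was at 0.533 times that median. Its summed hepatocyte markers were 116074 CPM, where the other 15 ranged from 61511.8 to 82862.9 CPM, and its stellate cell markers were 1039 CPM, where the others ranged from 1411 to 2564 CPM. Its label was kept. Calls and folds that moved most without it are given with the members. In 8 other libraries (AZ#2, AZ#5, AZ#6, Gen#10, Gen#11, Gen#13, Gen#21 and Gen#29) between 20.8% and 59.0% of the weakly expressed genes, those with a group mean of 1 to 2 CPM, had no count. Counts in genes were 15661381 to 36224054 per mouse, so that the scarcest members still had counts in all mice but 1.

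Most of the family was lower on WTD. Adjusted for all 15574 genes tested, 9 of the 10 members were lower in WTD-fed than in chow-fed mice at an adjusted p below 0.01, where 33.5% of all genes were called and 16.0% were called lower (edgeR's quasi-likelihood test, Benjamini-Hochberg). The median log2 fold change of the members was −1.37, that of all genes tested 0.03. Counts of the 10 members together took from 3502 to 5225 CPM in chow-fed mice, with a median of 4637. WTD-fed mice had sums of 919 to 3702 CPM around a median of 1161, and atorvastatin-treated mice had 1090.1 to 3700.3 CPM around a median of 2376. In the atorvastatin group, 4 of the 10 members were higher than in WTD-fed mice, where 7.10% of all genes were called and 4.84% were called higher, and none was lower, where 2.26% of all genes were called. Compared with chow, 4 of the 10 were still lower in atorvastatin-treated mice, where 25.0% of all genes were called and 10.7% were called lower. The sum of the 10 overlapped the chow range in 1 WTD-fed mouse, Gen#20, and in 1 atorvastatin-treated mouse, Gen#30. Overlap of single members with the chow range is given below as a description. The share of all genes without such overlap was not counted.

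**Figure D2:**
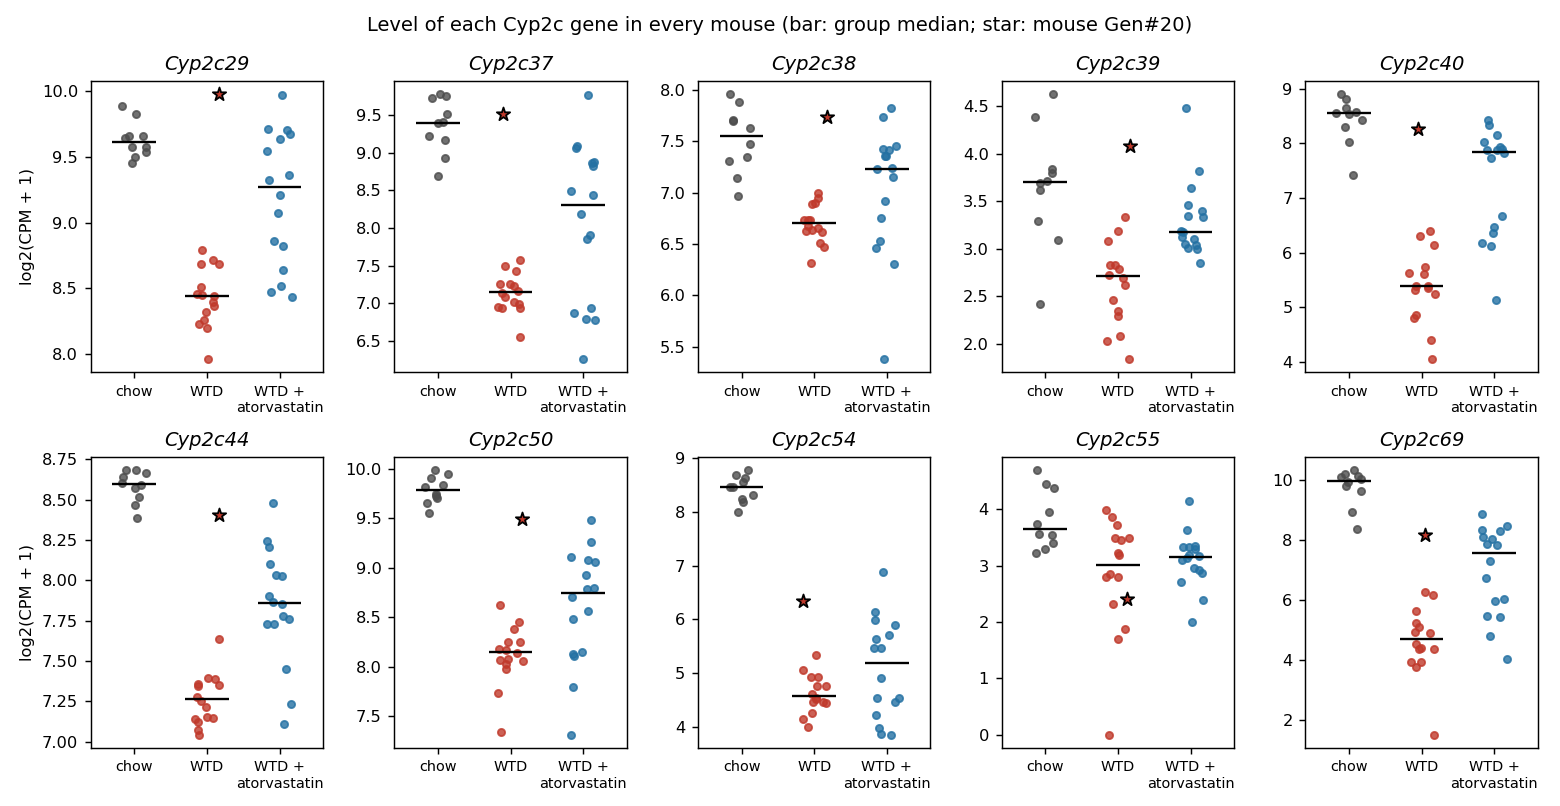
Level of each member in every mouse, as log2(CPM + 1) with a scale of its own per gene, with 1 point per mouse for the 10 chow-fed, 16 WTD-fed and 16 atorvastatin-treated mice, a bar at each group's median and a star for mouse Gen#20. WTD-fed mice sit below chow-fed mice without overlap in Cyp2c50, Cyp2c54 and Cyp2c69, and Gen#20 is the highest WTD-fed mouse in 9 of the 10 members. How many of all genes lack such overlap was not counted.

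Cyp2c69 (chr19:39842814-39886799, − strand, 9 exons) and Cyp2c40 (chr19:39767071-39812814, − strand), which oxidises arachidonic acid, are known for higher expression in female than in male mouse liver. Cyp2c69 ranged from 329.9 to 1292 CPM in chow-fed mice (median 1013), from 1.87 to 288 CPM in WTD-fed mice (median 25.4) and from 15.3 to 471 CPM in atorvastatin-treated mice (median 192). All 16 WTD-fed mice lay below the lowest chow-fed mouse, and 75.3 CPM was the highest value of the 15 mice other than Gen#20. The log2 fold change on WTD was −4.32 ± 0.54 (SE), a 20.0-fold lower level (adjusted p = 1.4e-08, edgeR). Atorvastatin-treated mice were 4.02-fold above WTD-fed mice, a log2 fold change of 2.01 ± 0.47 (SE) with an adjusted p of 0.0028 in edgeR. They remained below chow by −2.32 ± 0.51 (SE) on the log2 scale (adjusted p = 0.00038, edgeR), with 2 of the 16 mice inside the chow range and 15 above the median of the WTD group. Without Gen#20 the WTD difference was larger, 30.9-fold lower (log2 fold change −4.95), as was that of atorvastatin from WTD, 6.19-fold higher (2.63).

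Cyp2c40 followed the same order of groups with a smaller range. It spanned 169 to 475 CPM in chow-fed mice (median 372), 15.7 to 306 CPM in WTD-fed mice (median 41.2) and 34.0 to 344 CPM in atorvastatin-treated mice (median 229). Of the 16 WTD-fed mice 15 lay below every chow-fed mouse, the exception being Gen#20, whereas 10 atorvastatin-treated mice lay inside the chow range. On WTD Cyp2c40 was 5.78-fold lower, a log2 fold change of −2.53 ± 0.36 (SE) with an adjusted p of 2.4e-07 in edgeR. Atorvastatin raised it 3.11-fold over WTD, by 1.64 ± 0.33 (SE) on the log2 scale (adjusted p = 0.00060, edgeR). The remaining difference from chow, −0.89 ± 0.36 (SE), did not pass the threshold (adjusted p = 0.050, edgeR). Without Gen#20 the log2 fold changes were −2.98 on WTD and 2.09 for atorvastatin against WTD.

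Cyp2c54 (chr19:40037940-40073827, − strand), Cyp2c50 (chr19:40089688-40113950, + strand) and Cyp2c37 (chr19:39992424-40012243, + strand) are neighbouring genes whose enzymes oxidise arachidonic acid. Cyp2c54 had 255 to 436 CPM in chow-fed mice (median 349), 15.0 to 80.4 CPM in WTD-fed mice (median 22.9) and 13.6 to 117 CPM in atorvastatin-treated mice (median 36.3). Neither WTD-fed group overlapped the chow group. Its log2 fold change on WTD was −3.64 ± 0.29 (SE), 12.4-fold lower (adjusted p = 1.6e-13, edgeR), and atorvastatin-treated mice were still 8.56-fold below chow (−3.10 ± 0.29, adjusted p = 1.9e-11, edgeR). The difference between the WTD-fed groups was 0.54 ± 0.25 (SE) on the log2 scale and did not pass the threshold (adjusted p = 0.17, edgeR).

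Cyp2c50 showed the same lack of overlap with chow at a smaller fold change. It ranged from 750.0 to 1015 CPM in chow-fed mice (median 881), from 161 to 717 CPM in WTD-fed mice (median 284) and from 158 to 717 CPM in atorvastatin-treated mice (median 428). Its level was 2.87-fold lower on WTD (log2 fold change −1.52 ± 0.18, adjusted p = 2.3e-09, edgeR), and it was lower than chow by −1.09 ± 0.18 in atorvastatin-treated mice (adjusted p = 4.7e-06, edgeR). The atorvastatin difference from WTD was 0.44 ± 0.16 with all mice (adjusted p = 0.066, edgeR) and 0.57 without Gen#20 (adjusted p = 0.0030, edgeR). It was also called with all mice in limma-voom (0.56, adjusted p = 0.00017), and it was not called in edgeR when the 8 libraries that lacked weakly expressed genes were left out together with Gen#20.

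Cyp2c37 was the most widely spread of the 3 in the atorvastatin group. Chow-fed mice held 412 to 875 CPM (median 674), WTD-fed mice 92.6 to 731 CPM (median 141) and atorvastatin-treated mice 75.8 to 867 CPM (median 317). The highest WTD-fed mouse other than Gen#20 had 189 CPM, and 6 atorvastatin-treated mice lay within the chow range. Cyp2c37 was 3.77-fold lower on WTD (log2 fold change −1.91 ± 0.32, adjusted p = 4.0e-06, edgeR). Relative to WTD, atorvastatin-treated mice differed by 0.90 ± 0.29 (adjusted p = 0.031, edgeR), or by 1.23 without Gen#20 (adjusted p = 0.00028, edgeR). Relative to chow the difference was −1.02 ± 0.32 (adjusted p = 0.011, edgeR), with an adjusted p of 0.0022 in edgeR when Gen#20 was left out. It also passed without AZ#5 (0.0092), Gen#30 (0.0024), Gen#35 (0.0083) or Gen#37 (0.0087), each left out alone.

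Cyp2c29 (chr19:39269405-39330713, + strand) makes epoxides from arachidonic acid and is induced by activators of CAR. It ranged from 701 to 949 CPM in chow-fed mice (median 782), from 248 to 1007 CPM in WTD-fed mice (median 347) and from 345 to 1005 CPM in atorvastatin-treated mice (median 616). Apart from Gen#20 at 1007 CPM, no WTD-fed mouse exceeded 443 CPM, and the 15 others lay below the lowest chow-fed mouse. Its level was 2.04-fold lower on WTD (log2 fold change −1.03 ± 0.17, adjusted p = 2.9e-06, edgeR). Atorvastatin-treated mice were 1.58-fold above WTD-fed mice (0.66 ± 0.15, adjusted p = 0.0024, edgeR), and their difference from chow, −0.37 ± 0.17, did not pass the threshold (adjusted p = 0.093, edgeR). Its annotated exons overlap those of the pseudogene Cyp2c53-ps over 142 of 3061 bases on the same strand.

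Cyp2c38 (chr19:39389556-39463075, − strand) had 125 to 248 CPM in chow-fed mice (median 188), 78.7 to 213 CPM in WTD-fed mice (median 103) and 40.7 to 226 CPM in atorvastatin-treated mice (median 149.7). Of the WTD-fed mice 14 lay below the chow range, while the lowest single value of the gene was in an atorvastatin-treated mouse. The gene was 1.68-fold lower on WTD (log2 fold change −0.75 ± 0.17, adjusted p = 0.00042, edgeR). The atorvastatin difference was 0.34 ± 0.15 from WTD (adjusted p = 0.15, edgeR) and −0.41 ± 0.17 from chow (adjusted p = 0.067, edgeR), and neither passed. Cyp2c39 (chr19:39510862-39568529, + strand), which hydroxylates retinoic acid, was far scarcer, with medians of 12.0 CPM in chow-fed, 5.55 CPM in WTD-fed and 8.06 CPM in atorvastatin-treated mice. Its groups overlapped, since chow-fed mice ranged from 4.35 to 23.7 CPM, WTD-fed mice from 2.59 to 16.0 CPM and atorvastatin-treated mice from 6.22 to 21.4 CPM. Its level was 2.09-fold lower on WTD (−1.06 ± 0.23, adjusted p = 0.00016, edgeR). The atorvastatin difference from WTD, 0.63 ± 0.21, had an adjusted p of 0.034 in edgeR, and was 0.80 without Gen#20 (adjusted p = 0.0022, edgeR).

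Cyp2c44 (chr19:44005022-44029208, − strand), an arachidonic acid epoxygenase annotated as Cyp2c23, lies apart from the other 9 members on the same chromosome. It had the lowest ratio of the highest to the lowest chow-fed mouse among the members, with 333 to 411 CPM (median 386), against 131 to 339 CPM in WTD-fed mice (median 153) and 137 to 357 CPM in atorvastatin-treated mice (median 232). Gen#20 was the 1 WTD-fed mouse within the chow range, and 1 atorvastatin-treated mouse reached it. Cyp2c44 was 2.32-fold lower on WTD (log2 fold change −1.22 ± 0.12, adjusted p = 3.2e-12, edgeR). Atorvastatin-treated mice were 1.43-fold above WTD-fed mice (0.51 ± 0.11, adjusted p = 0.00056, edgeR) and remained below chow (−0.70 ± 0.12, adjusted p = 4.4e-06, edgeR).

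Cyp2c55 (chr19:39007019-39042693, + strand), best known from colon and kidney, was among the scarcest members and the only one that was not called on WTD. It ranged from 8.37 to 25.0 CPM in chow-fed mice (median 11.7), from 0 to 14.9 CPM in WTD-fed mice (median 7.17) and from 3.01 to 16.7 CPM in atorvastatin-treated mice (median 7.90). Its log2 fold changes were −0.93 ± 0.33 for WTD against chow (adjusted p = 0.018, edgeR), 0.11 ± 0.29 for atorvastatin against WTD (adjusted p = 0.88, edgeR; 95% interval −0.46 to 0.68) and −0.82 ± 0.33 for atorvastatin against chow (adjusted p = 0.047, edgeR). The mouse with a count of 0 was Gen#11, whose library had no count for 40.7% of the weakly expressed genes. Without Gen#11 the WTD difference was −0.83 (adjusted p = 0.0046, edgeR) and that of atorvastatin against chow −0.82 (adjusted p = 0.0063, edgeR), and without Gen#21 the WTD difference was −1.03 (adjusted p = 0.0089, edgeR). Over 64 of its 1995 exonic bases Cyp2c55 overlaps a gene on the opposite strand, Gm23800.

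**Figure D3:**
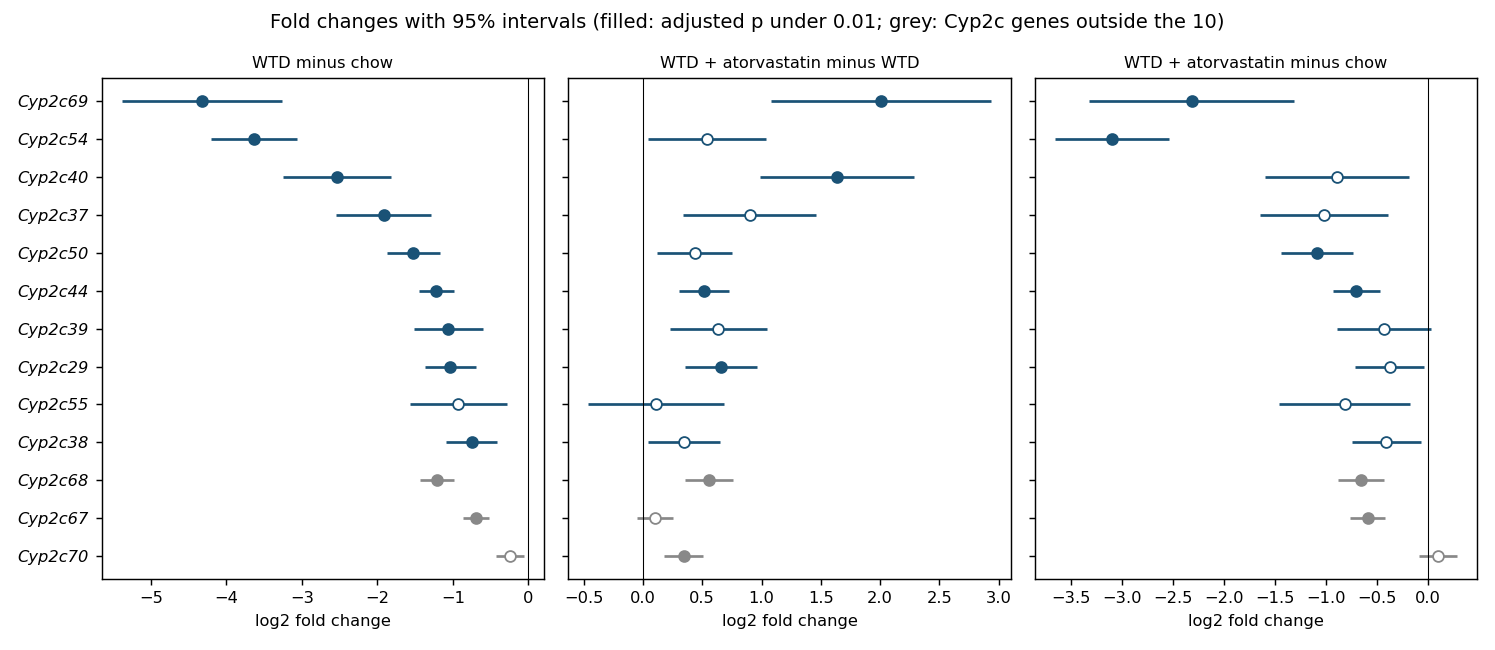
Log2 fold change of the 10 members and, in grey, of 3 other Cyp2c genes in the 3 comparisons, with lines for the 95% interval of edgeR's fit and filled points where the adjusted p was below 0.01. On WTD the members span −0.75 in Cyp2c38 to −4.32 in Cyp2c69, and 4 members are filled on the higher side for atorvastatin against WTD.

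Libraries and scaling bore on these calls. Without the 8 libraries that lacked weakly expressed genes 9 members were still called lower on WTD, where 34.9% of all genes were called. However, no member was called for atorvastatin against WTD, where 4.88% of all genes were called (edgeR's quasi-likelihood test). The differences themselves changed little, to 1.83 in Cyp2c69, 1.47 in Cyp2c40, 0.56 in Cyp2c29 and 0.46 in Cyp2c44, with adjusted p of 0.027, 0.013, 0.037 and 0.014 in edgeR. Without both these libraries and Gen#20, 6 members were called: Cyp2c29, Cyp2c37, Cyp2c39, Cyp2c40, Cyp2c44 and Cyp2c69. In that setting 10.5% of all genes were called. In bulk tissue, fewer cells of a type and less RNA per cell cannot be told apart, and hepatocyte markers moved with the family. All 9 tested hepatocyte markers were lower on WTD, with a median log2 fold change of −0.90. Almost no reads were counted for a further marker, Trf, for a reason that was not tested. The summed level of the 9 and Trf was 126603 to 177229 CPM in chow-fed mice. It was 61511.8 to 116074 CPM in WTD-fed and 70091 to 139388 CPM in atorvastatin-treated mice. Scaling to these markers moved the median log2 fold change of all genes on WTD to 0.92, with 68.1% of all genes called and 66.4% called higher. On this scale 6 members were still called lower, Cyp2c69 at −3.55, Cyp2c54 at −2.79, Cyp2c40 at −1.73, Cyp2c37 at −1.10, Cyp2c50 at −0.67 and Cyp2c44 at −0.35, whereas Cyp2c29 (−0.18), Cyp2c39 (−0.21), Cyp2c55 (−0.01) and Cyp2c38 (0.11) were not. For atorvastatin against WTD, Cyp2c40 and Cyp2c69 kept their calls on the hepatocyte scale and Cyp2c29 and Cyp2c44 lost theirs, and against chow Cyp2c44 lost its call (−0.11). The part of hepatocyte content in the fall of the family was not tested beyond this.

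Of the 5 other protein-coding Cyp2c genes, 3 were expressed. Cyp2c68, the closest relative of Cyp2c40, ranged from 464 to 589.6 CPM in chow-fed, 165 to 421 CPM in WTD-fed and 216 to 467 CPM in atorvastatin-treated mice, with log2 fold changes of −1.21 on WTD (adjusted p = 1.3e-12, edgeR) and 0.56 with atorvastatin against WTD (adjusted p = 0.00014, edgeR). Cyp2c67, the closest relative of Cyp2c69, had medians of 173, 113 and 119.5 CPM in the 3 groups, with a log2 fold change of −0.69 on WTD (adjusted p = 3.2e-09, edgeR) and 0.10 with atorvastatin (adjusted p = 0.46, edgeR). Cyp2c69 and Cyp2c67, at −4.32 and −0.69 on WTD, share 97.69% of their coding bases, and the difference between their fold changes was not tested. Cyp2c70, which makes muricholic acids from chenodeoxycholic acid, was not called on WTD (−0.24, adjusted p = 0.035, edgeR), although limma-voom called it (−0.35, adjusted p = 0.0060), as did edgeR without the 8 libraries and Gen#20 (−0.37, adjusted p = 0.0062). It was higher with atorvastatin than on WTD (0.34, adjusted p = 0.0031, edgeR), but not on the hepatocyte scale (0.05, adjusted p = 0.67). Cyp2c65 and Cyp2c66 held 7 and 23 counts over all 42 mice, and the pseudogenes Cyp2c52-ps, Cyp2c53-ps and Cyp2c73-ps held 374, 1 and 0.

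The composition of the family changed along with its sum. Each member's share of the counts of all 10 was compared over mice, with 100000 permutations per test and Benjamini-Hochberg adjustment over 30 tests. Shares sum to 100%, so that a higher share of a member on WTD can go with a lower level. On WTD 9 members had a changed share at an adjusted p below 0.05, with atorvastatin against WTD 4, and with atorvastatin against chow 6. Cyp2c69 took 19.8% ± 5.44 (SD, n = 10) of the family in chow-fed mice, 2.92% ± 2.13 (SD, n = 16) in WTD-fed mice and 7.58% ± 4.73 (SD, n = 16) in atorvastatin-treated mice (permutation test, adjusted p = 3.3e-05 on WTD and 0.002 for atorvastatin against WTD). Cyp2c54 fell from 7.64% ± 1.41 to 2.14% ± 0.467 (SD, permutation test, adjusted p = 3.3e-05) and stayed at 1.90% ± 1.07 with atorvastatin (adjusted p = 0.52 against WTD). For Cyp2c40 the shares were 7.62%, 4.14% and 8.26%, so that the atorvastatin mean was above that of WTD (permutation test, adjusted p = 3.3e-05) and not distinguishable from chow (adjusted p = 0.54).

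The share that these genes lost went to members with smaller fold changes. Cyp2c29 rose from 17.7% ± 3.21 (SD, n = 10) of the family on chow to 30.4% ± 3.57 (SD, n = 16) on WTD (permutation test, adjusted p = 3.3e-05) and was 29.1% ± 4.05 with atorvastatin. Cyp2c44 rose from 8.45% to 13.3% and Cyp2c38 from 4.05% to 8.93% (both permutation adjusted p = 3.3e-05). Cyp2c38 then fell to 6.55% with atorvastatin (permutation adjusted p = 3.3e-05 against WTD). Cyp2c50 held 19.7% on chow, 24.2% on WTD and 19.7% with atorvastatin, a rise and a return that both passed (permutation adjusted p = 0.0034 and 0.0039). With the other Cyp2c genes in the denominator, the WTD difference of Cyp2c50 turned to −1.24 percentage points and its atorvastatin difference did not pass. Cyp2c37 held 14.6%, 12.9% and 13.9%, and none of its 3 differences passed. Its WTD difference did pass without Gen#20 (−2.10 percentage points, permutation adjusted p = 0.035) and with the other Cyp2c genes in the denominator (−3.75 percentage points, permutation adjusted p = 0.00066).

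**Figure D4:**
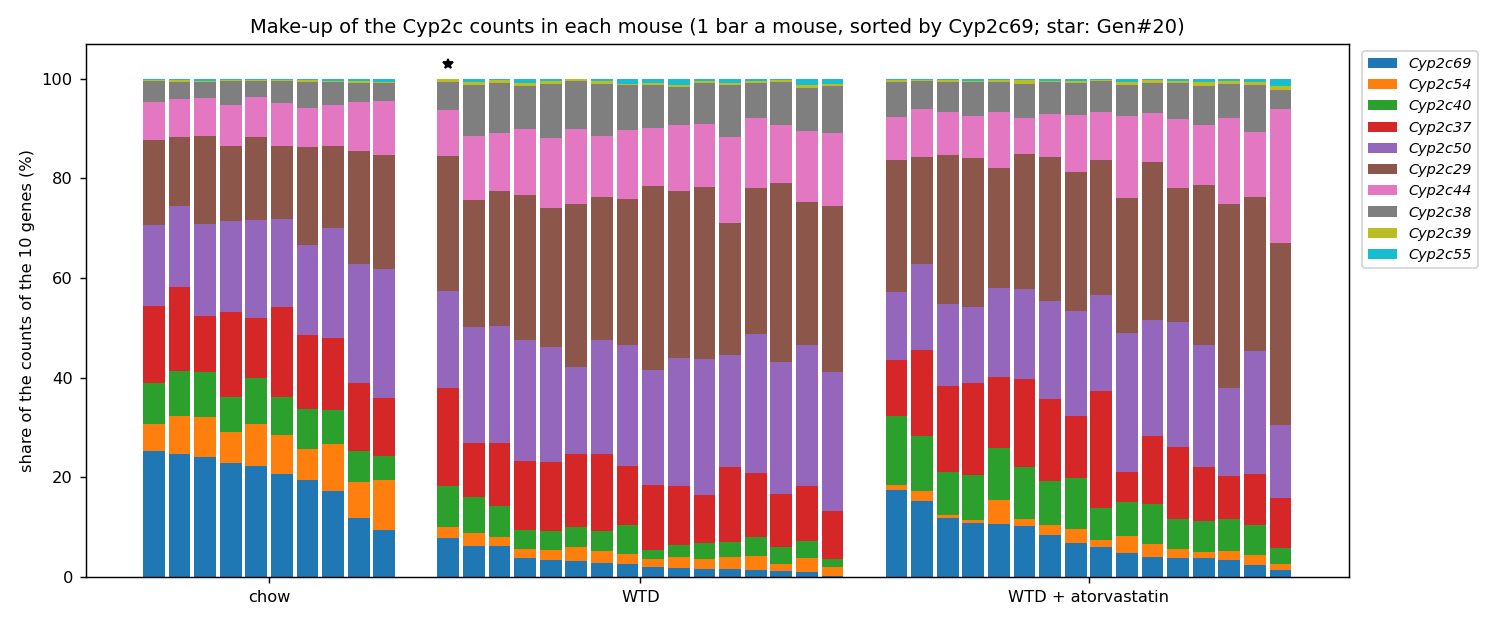
Share of each member in the counts of the 10 members, in percent, with 1 stacked bar per mouse, sorted within the group by Cyp2c69, and a star over mouse Gen#20. The mean share of Cyp2c69, at the bottom of the bars, was 19.8% on chow, 2.92% on WTD and 7.58% with atorvastatin, while Cyp2c29 grew from 17.7% on chow to 30.4% on WTD.

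Levels of different genes were compared per kilobase of exonic length, as geometric means of CPM per kilobase. On chow Cyp2c69 led with 503, followed by Cyp2c37 with 359, Cyp2c50 with 303, Cyp2c29 with 259, Cyp2c54 with 192, Cyp2c44 with 177 and Cyp2c40 with 167. Cyp2c38 with 63.4, Cyp2c55 with 6.61 and Cyp2c39 with 6.31 closed the order. Of these neighbours Cyp2c37 and Cyp2c50 (exact sign-flip test within mice, adjusted p = 0.12), Cyp2c54 and Cyp2c44 (0.21), Cyp2c44 and Cyp2c40 (0.69) and Cyp2c55 and Cyp2c39 (0.86) did not differ beyond their spread. By coding length alone the chow order began with Cyp2c50, Cyp2c69, Cyp2c29 and Cyp2c37, so the first place depends on the length used. Exonic length takes in the exons of all annotated transcripts of a gene, 2918 bases in Cyp2c50 and 1708 in Cyp2c69. Neither length leaves out stretches that occur in other Cyp2c genes, 29.1% in Cyp2c40 and 22.5% in Cyp2c69. The places of these genes in all 3 groups therefore carry the uncertainty of uncounted reads.

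On WTD the order began with Cyp2c29 at 120.3, Cyp2c50 at 100.5, Cyp2c37 at 84.8 and Cyp2c44 at 74.2. Cyp2c38 at 37.5 and Cyp2c40 at 22.6 came before Cyp2c69 at 15.6, Cyp2c54 at 14.3, Cyp2c39 at 3.00 and Cyp2c55 at 2.45. Cyp2c69 moved from first place on chow to the seventh on WTD, next to Cyp2c54, from which it did not differ (exact sign-flip test, adjusted p = 0.74). Cyp2c50 and Cyp2c37, Cyp2c37 and Cyp2c44 (both 0.067), and Cyp2c39 and Cyp2c55 (0.75) were not separated either. With atorvastatin Cyp2c29 led at 189.9, followed by Cyp2c37 at 146, Cyp2c50 at 134, Cyp2c44 at 106, Cyp2c40 at 77.5 and Cyp2c69 at 72.6. Cyp2c38 at 45.3, Cyp2c54 at 18.6, Cyp2c39 at 4.92 and Cyp2c55 at 3.77 followed. The unseparated neighbours were Cyp2c37 and Cyp2c50 (exact sign-flip test, adjusted p = 0.56), Cyp2c44 and Cyp2c40 (0.093), Cyp2c40 and Cyp2c69 (0.62), and Cyp2c39 and Cyp2c55 (0.093). By coding length Cyp2c44 came before Cyp2c37 on WTD. With atorvastatin, Cyp2c50 then came before Cyp2c37 and Cyp2c38 before Cyp2c69.

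**Figure D5:**
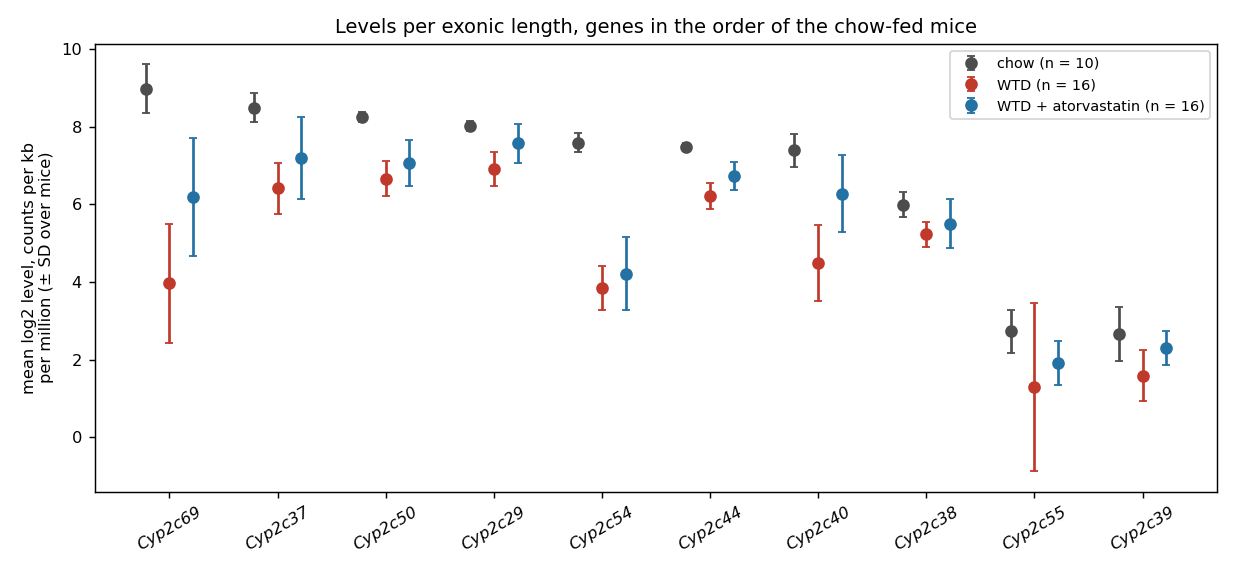
Mean log2 level of each member in CPM per kilobase of exonic length, by group, with bars for the SD over mice (n = 10 chow, 16 WTD, 16 atorvastatin) and genes in the order of the chow group. Cyp2c69 has the highest geometric mean on chow (503), and Cyp2c29 has the highest on WTD (120.3) and with atorvastatin (189.9).

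Atorvastatin-treated mice were not spread evenly. Cyp2c40 lay between 34.0 and 101 CPM in 6 of them (Gen#22, Gen#23, Gen#24, Gen#25, Gen#28 and Gen#36) and between 211 and 344 CPM in the other 10, with no mouse between. The same 6 mice were the lowest 6 in Cyp2c69, with 15.3 to 63.9 CPM against 106 to 471 CPM. They were also the lowest 6 in Cyp2c29, with 345 to 465 CPM against 537 to 1005 CPM, and in Cyp2c38, with 40.7 to 120.2 CPM against 142 to 226 CPM. In the other 6 members the 2 sets of mice overlapped. Of all 15574 genes tested, 343 (2.20%) had these 6 mice below the other 10 and 169 (1.09%) had them above. The sets were cut at the widest gap in Cyp2c40, so their separation in this gene was given in advance. Cyp2c40 also shares stretches of identical sequence with Cyp2c69. These sets come from the measured levels and are no groups of the study, so they were not compared by a test.

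Relations between members were examined over the 45 pairs within each group, with 135 tests in all. With all mice, 1 pair in chow-fed, 7 in WTD-fed and 12 in atorvastatin-treated mice passed both Pearson's and Spearman's permutation test after Benjamini-Hochberg adjustment. Without Gen#20 these counts were 0, 3 and 12, and the median r of the WTD-fed mice was 0.27 in place of 0.70. Relative to the hepatocyte markers, with all mice, the counts were 1, 5 and 8, and the median r of the WTD-fed mice was 0.57. No r is given for the atorvastatin group, in which 6 mice lay below the other 10 in 4 of the 10 members. That split was made on Cyp2c40, itself a member. Relations within its 2 sides were not tested, so the 12 pairs are given as a count only. The pair with the highest r on chow was Cyp2c40 and Cyp2c69, with r = 0.95 (permutation p = 2.7e-04, adjusted 0.003) and rho = 0.81 (permutation p = 0.0073, adjusted 0.058) over 10 mice, the adjusted values being those without Gen#20. Without the 2 mice farthest from the Cyp2c40 median r was 0.70. In the 15 WTD-fed mice other than Gen#20 this pair had r = 0.79 (permutation p = 3.9e-04, adjusted 0.0038) and rho = 0.72 (permutation p = 0.0031, adjusted 0.032), and r = 0.74 without the 2 farthest mice. Reads without a unique alignment were not counted, and the effect of the identical stretches of these genes on their r was not tested.

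The 3 genes outside the family whose levels followed the members most closely were Cyp2j5, an arachidonic acid epoxygenase, Gm4756 and Acot3, an acyl-CoA thioesterase. Likeness was the mean of the within-group r between a gene and the mean standardised level of the 8 members at 10 CPM or more, over 15560 genes in 10, 16 and 16 mice. It was 0.838 for Cyp2j5, 0.829 for Gm4756 and 0.815 for Acot3. In the WTD group r was 0.813, 0.894 and 0.861 with Gen#20, and 0.392, 0.545 and 0.355 without it, so that much of the likeness on WTD lay in 1 mouse. In chow-fed mice r was 0.752, 0.664 and 0.694. The mean also includes the atorvastatin group, whose mice lay on both sides of a gap in Cyp2c40, itself a member. Genes were not ranked again without that group or without Gen#20.

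Genes that serve the P450 reaction were lower on WTD in part. For this and the following lists, 17.5% of all genes tested were called higher and 16.0% lower on WTD. For atorvastatin against WTD 4.84% were called higher and 2.26% lower. Of 4 electron donors 3 fell and none rose, among them Cyb5a by 0.80 and Cyb5b by 0.85 on the log2 scale, and Por, the oxidoreductase that passes electrons to all these enzymes, fell by 0.53 (adjusted p = 0.0038, edgeR). Of 11 genes of haem synthesis and breakdown 6 fell and 2 rose, with Alad, an early enzyme of haem synthesis, at −0.81 and Hmox1, which degrades haem, at 1.56. Alas1, the first enzyme of haem synthesis, had a log2 fold change of −0.20 that did not pass (adjusted p = 0.48, edgeR). With atorvastatin against WTD 2 of 4 electron donors rose (Cyb5b 0.50, Cyb5r3 0.41), as did 3 of 11 haem genes, Fech (0.39) and Ppox (0.42) among them. On the hepatocyte scale the WTD differences of Cyb5a, Cyb5b, Alad and Por were between 0.02 and 0.33, turned in sign, and for atorvastatin against WTD Cyb5b (0.21), Cyb5r3 (0.12), Fech (0.11) and Ppox (0.13) lost their calls. Cyb5r3 also lost its call without the 8 libraries (0.37, adjusted p = 0.023, edgeR), and Por lost its call on WTD without AZ#9 (−0.48, adjusted p = 0.010, edgeR).

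Enzymes that act on the products and supply the substrate of the epoxygenase members were divided. The soluble epoxide hydrolase Ephx2 fell by 0.58 on the log2 scale on WTD, and the microsomal enzyme Ephx1 was at −0.21 (adjusted p = 0.073, edgeR). For atorvastatin against WTD neither passed with all mice, but Ephx2 passed without Gen#20 (0.29, adjusted p = 0.0078, edgeR) and in limma-voom (0.29, adjusted p = 0.0013). Of 8 genes of arachidonic acid supply and other epoxygenases 4 fell on WTD, Cyp2j5 by 0.93, and 2 rose, including the phospholipase Pla2g4a (1.48). With atorvastatin 2 of the 8 rose over WTD, Cyp2j5 by 0.42 and the desaturase Fads1 by 0.47. On the hepatocyte scale Cyp2j5 was not called on WTD (−0.06) nor, like Fads1, with atorvastatin (0.13 and 0.15), and Fads1 also lost its call without the 8 libraries (0.44, adjusted p = 0.034, edgeR) and in the fit of 2 groups (adjusted p = 0.010, edgeR).

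Regulators of P450 genes were in part lower on WTD. Of 11 nuclear receptors and liver factors 7 fell and none rose, with CAR (Nr1i3) at −1.46 (adjusted p = 1.3e-08, edgeR), the pregnane X receptor (Nr1i2) at −0.44 and Hnf4a at −0.31. On the hepatocyte scale Nr1i2 and Hnf4a turned to 0.44 and 0.57. Of 7 tested CAR targets outside the family 4 fell and 2 rose, with Cyp2b10 at −4.11 (adjusted p = 6.0e-07, edgeR) and the carboxylesterase Ces2a at −1.40. With atorvastatin Hnf4a rose over WTD by 0.33, and 2 of the 7 targets rose (Cyp2b9 0.94, Abcc2 0.45). On the hepatocyte scale Hnf4a (0.07) and Abcc2 (0.18) lost these calls. Of 16 genes of growth hormone signalling and female-biased expression 11 fell and 1 rose on WTD, A1bg at −6.38 and Cyp2b9 at −1.78 on the log2 scale, and 7 rose with atorvastatin over WTD, Cyp3a41a, which can share reads with near-identical copies, by 3.59 and Cyp3a44 by 3.27.

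Markers of zones and of other liver cells moved as well. Pericentral hepatocyte markers, from the zone where many Cyp2c genes are expressed, fell in 9 of 11 tested genes on WTD (Cyp27a1 −0.92, Aldh1a1 −1.07). With Oat, for which almost no reads were counted, their summed level was 12180.4 to 16103.7 CPM in chow-fed mice. It was 5529.97 to 15146.4 CPM in WTD-fed and 4822.34 to 13639.3 CPM in atorvastatin-treated mice. On the hepatocyte scale Cyp27a1 (−0.03) and Aldh1a1 (−0.20) were not called. Periportal markers fell in 8 of 10 (Cyp2f2 −2.58, Hal −2.05), so both zones were lower. Macrophage markers rose in 8 of 10, with summed levels of 396 to 635 CPM on chow, 2430.3 to 4355 CPM on WTD and 1751 to 3072 CPM with atorvastatin. Stellate cell markers rose in 7 of 9, with 350.3 to 596 CPM, 1039 to 2564 CPM and 913 to 2394 CPM, and all 5 cholangiocyte markers rose. Of 6 endothelial markers 3 fell and 1 rose, and of 8 neutrophil and lymphocyte markers 2 rose (25% called, against 33.5% of all genes). Intestinal markers, listed because of Cyp2c55, rose in 1 and fell in 1 of 4 tested genes, with Cdx2 at 0 in all mice. With atorvastatin against WTD 4 of 9 hepatocyte, 4 of 11 pericentral and 7 of 10 periportal markers rose, 5 of 10 macrophage markers fell and 1 rose, and 4 of 9 stellate cell markers and 1 of 5 cholangiocyte markers fell. Their part in the changes of the Cyp2c members was not tested beyond the hepatocyte scaling given above.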

How the data were processed

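Strand-specific mRNA libraries were sequenced as paired reads of 150 bases. The authors deposited raw counts per gene, made with STAR 2.5 and HTSeq 0.6.1p1 on GRCm38 with GENCODE vM19 genes, per the labels and the study's methods, and the submitters' notes also name Trimmomatic and DESeq2. The table of all mice was used, and the 42 single tables held the same values. Reads in no gene made up 2.00% to 2.78% of counts. Reads ambiguous between genes made up 5.43% to 6.57%, and reads without a unique alignment 4.07% to 5.36%. All were left out, as was every other row that names no gene. Counts in genes ranged from 15661381 to 36224054 per mouse, with a median of 19421089.5. Gene symbols, exons and lengths came from GENCODE vM21, which held 54409 of the 54446 identifiers. Cyp2c54 and Cyp2c69 have another version there, so their lengths may differ. Promoters came from RefSeq (GRCm38.p6).

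Low counts were removed by filterByExpr (count of 10, total of 15), and the rest were scaled by TMM and tested in 1 robust quasi-likelihood fit over the 3 groups (edgeR 4.0.16, limma 3.58.1, R 4.3.3), with p-values adjusted over 15574 genes by Benjamini-Hochberg and called below 0.01. Fold changes are from this fit. Levels are CPM of single mice. Shares were tested with 100000 permutations (two-sided, smallest possible p 1.0e-05), neighbours in the order of levels with exact two-sided sign-flip tests over 27 pairs of neighbours after adding a count of 0.5, and member pairs with 100000 permutations (Python 3.11.15, scipy 1.17.1). Alternatives were DESeq2 1.42.0, limma-voom, other scalings and filters, and leaving out libraries. Leaving out Gen#20 from shares, pairs and likeness, leaving out Gen#20 together with the 8 thin libraries, and using the GENCODE coding length were chosen after seeing the data.

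The members and lists were chosen with earlier results of these data known. Named were all 10 members, every other Cyp2c gene, from each list the 2 genes with the smallest p on WTD and with atorvastatin against WTD, 8 fixed genes (Por, Ephx1, Ephx2, Nr1i2, Nr1i3, Hnf4a, Alas1, Cyp2b10) and the 3 genes most like the members. One result that this rule would name is not reported here. Markers of neutrophils, lymphocytes and intestine that did not pass for atorvastatin, and Tff3, at 0 in all chow-fed mice, are not given values. Trf and Oat were not tested because almost no reads were counted for them. On simulated counts for WTD against chow, over 15305 genes, the fit called 48 of 48 genes at a log2 fold change of −4, 35 of 47 at −2, 38 of 50 at −1, 29 of 50 at 1, and 0 of 15110 unchanged genes.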

Additional observations from a re-analysis of the deposited data

How the results depend on the processing

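The 9 calls on WTD stayed at 9 under DESeq2 (36.7% of all genes called), limma-voom (41.8%), RLE (33.5%) and upper-quartile scaling (33.7%). The same held without a filter (23.6%), with at least 10 counts in every mouse (41.9%) and in a fit of 2 groups (29.4%). It held too with the covariate of missing weak genes (34%) and without the 8 thin libraries (34.9%). On the hepatocyte scale 6 were called. At an adjusted p below 0.05 there were 10 calls, and with a log2 fold change of at least 1 there were 8. Calls for atorvastatin against WTD, 4 with all mice, were 2 on the hepatocyte scale (9.71% of all genes called), 0 without the 8 thin libraries (edgeR, where 775 of 15877 genes were called), 8 with limma-voom (20.2% of all genes called, against 7.10%), 2 with a log2 fold change of at least 1, 6 at an adjusted p below 0.05, and 6 without both the thin libraries and Gen#20, an alternative chosen after seeing the data. Against chow, 4 with all mice, they were 8 with limma-voom (31.9% of all genes called, against 25.0%) and 3 to 6 otherwise. Shares of all genes called against chow ran from 16.8% without a filter to 53.7% on the hepatocyte scale. Leaving out 1 mouse at a time gave 9 to 10 calls on WTD, 4 to 7 for atorvastatin against WTD, with 7 without Gen#20, and 4 to 5 against chow. For these fits and for the changed thresholds the share of all genes is not given, so those counts describe the members only. The causes were not tested. On WTD, 68.1% of all genes were called on the hepatocyte scale. For atorvastatin against WTD, 10.5% were called without both the thin libraries and Gen#20.

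The hepatocyte scale turned these log2 fold changes on WTD: Cyp2c38 to 0.11, Cyp2c70 to 0.65, Cyp2c67 to 0.20, Cyb5a to 0.0709, Cyb5b to 0.0230, Alad to 0.0676, Ephx2 to 0.29, Ephx1 to 0.68, Nr1i2 to 0.44, Hnf4a to 0.57, Por to 0.33 and Alas1 to 0.67. For atorvastatin against WTD it turned Cyp2c55 to −0.19, Cyp2c67 to −0.18, Ephx2 to −0.0725 and Ephx1 to −0.12, and against chow Cyp2c29 to 0.17, Cyp2c38 to 0.13 and Cyp2c39 to 0.15. By construction this scale shifts every gene against the markers, and the median log2 fold change of all genes was 0.92 on WTD, −0.27 for atorvastatin against WTD and 0.67 against chow. Cyp2c55 for atorvastatin against WTD was also −0.0025 without the thin libraries, −0.0632 without these and Gen#20, −0.15 with limma-voom, and from −0.00077 (without Gen#28) to 0.21 with 1 mouse left out, and Ephx1 was −0.0113 with limma-voom. None of these Cyp2c55 and Ephx1 values passed.

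Changed shares numbered 19 of 30 tests, 19 per kilobase, 16 without the thin libraries, 15 with all Cyp2c genes as denominator and 20 without Gen#20. Per kilobase the share difference of Cyp2c37 turned to 0.172 percentage points on WTD and 0.688 for atorvastatin against chow, and that of Cyp2c39 for atorvastatin against WTD to −0.0119. With all Cyp2c genes as denominator Cyp2c50 turned to −1.24 on WTD and −2.66 for atorvastatin against chow, Cyp2c29 to 0.918 for atorvastatin against WTD and Cyp2c40 to −0.556 against chow. Separated neighbours in the order of levels numbered 15 of 27, 14 by coding length and 13 without length, where the RefSeq coding length planned was not run for want of a protein table. No paired analysis was possible because the replicate numbers only name different mice of each group.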
